A study of Mus musculus with 4 samples.

Results

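The 9 genes described here encode transcription factors that pattern the forebrain and midbrain of the mouse embryo: Emx1, Emx2, Otx1, Otx2, Six3, En1, En2, Gbx2 and Nkx2-1. They were taken by name, as 9 of the 22367 genes that GENCODE vM1 annotates on mm9 as protein-coding. Each was measured by its reads from 1 kb before to 1 kb after the gene-level start, the outermost transcription start annotated for the gene. The study examined Jarid1b, a demethylase of lysine 4 of histone H3, in E14TG2a.4 cells, mouse embryonic stem cells that grow without feeders and were kept with LIF. Chromatin immunoprecipitation and sequencing (ChIP-seq) gave 4 libraries. In 1 library, histone H3 trimethylated at lysine 4 (H3K4me3) was precipitated from cells given a short hairpin RNA (shRNA) against Jarid1b by lentivirus. In another, H3K4me3 was precipitated from cells that received a scrambled shRNA in the same vector, named LKO. The growth protocol describes puromycin selection of transduced cells. A pair of libraries used an antibody against Jarid1b, and their cell type label names E14 cells and no shRNA. All 4 libraries came from cultured stem cells, and none from brain tissue. H3K4me3 was measured in 1 library for each condition, so the conditions were not tested against each other, and every interval given covers counting error only.

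Early brain regions are set apart by homeodomain transcription factors, each active in its own territory of the neural plate. Otx2, Six3 and Emx2 act towards the front, En1, En2 and Gbx2 around the border between midbrain and hindbrain, and Nkx2-1 in the ventral forebrain. H3K4me3 marks the starts of active genes, and in embryonic stem cells many silent developmental genes with CpG-rich starts carry it together with the Polycomb mark H3K27me3, which was not measured here. Jarid1b, the product of Kdm5b, removes methyl groups from this lysine.

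The starts of these genes differed in base composition. This is shown here because GC content moved with the ratio of H3K4me3 between both conditions over all compared promoters, as given below. The 250 bases upstream of 5 starts are printed from the NCBIM37 (mm9) reference, 5′ to 3′ on the strand of the gene, with CpG dinucleotides in capitals.
Emx2, chr19:59532930-59533179, plus strand: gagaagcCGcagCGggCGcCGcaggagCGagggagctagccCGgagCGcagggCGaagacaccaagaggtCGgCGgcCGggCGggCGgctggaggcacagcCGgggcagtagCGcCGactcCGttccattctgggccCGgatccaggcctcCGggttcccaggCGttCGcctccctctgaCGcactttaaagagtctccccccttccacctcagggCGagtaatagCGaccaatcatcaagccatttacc
Nkx2-1, chr12:57637896-57638145, minus strand: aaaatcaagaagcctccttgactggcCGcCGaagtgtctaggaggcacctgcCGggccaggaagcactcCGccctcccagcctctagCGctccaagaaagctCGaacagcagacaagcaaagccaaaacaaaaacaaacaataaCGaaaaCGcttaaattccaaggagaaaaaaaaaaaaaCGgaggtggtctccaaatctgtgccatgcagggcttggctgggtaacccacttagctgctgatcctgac
Gbx2, chr1:91829866-91830115, minus strand: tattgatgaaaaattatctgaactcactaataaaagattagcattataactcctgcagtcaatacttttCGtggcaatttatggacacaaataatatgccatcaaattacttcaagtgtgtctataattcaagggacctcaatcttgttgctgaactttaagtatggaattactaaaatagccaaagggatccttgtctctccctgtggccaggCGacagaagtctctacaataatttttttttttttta
Otx2, chr14:49287320-49287569, minus strand: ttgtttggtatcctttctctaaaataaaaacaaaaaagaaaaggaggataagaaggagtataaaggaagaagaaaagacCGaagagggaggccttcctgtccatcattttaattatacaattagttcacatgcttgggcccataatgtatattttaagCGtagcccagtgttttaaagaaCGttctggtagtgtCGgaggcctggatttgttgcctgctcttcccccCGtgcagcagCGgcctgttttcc
Otx2, start 4772 bases downstream, chr14:49282548-49282797, minus strand: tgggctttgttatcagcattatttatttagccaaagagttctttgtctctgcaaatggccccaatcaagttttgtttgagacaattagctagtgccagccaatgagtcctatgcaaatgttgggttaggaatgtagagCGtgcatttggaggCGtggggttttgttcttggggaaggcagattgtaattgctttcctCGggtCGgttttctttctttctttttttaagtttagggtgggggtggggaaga
The Emx2 stretch held 24 CpG dinucleotides at 67.2% GC, and an exon of the non-coding gene Emx2os overlaps it on the opposite strand. The Nkx2-1 stretch held 9 at 50.8% GC. The gene-level start of Otx2 had 6 at 42% GC, and that of Gbx2 had 2 at 33.2% GC. The second Otx2 stretch, which lies before an annotated start 4772 bases downstream, held 4 CpG dinucleotides at 43.2% GC. Within the 2 kb windows, GC content had a median of 57.3% over the 9 genes, against 51.2% over all promoters, and the CpG observed over expected ratio had a median of 0.665, against 0.468. Otx2 (46.1% GC) and Gbx2 (47.5% GC) were the exceptions, below the median of all promoters. In the stretch from 250 bases before to 50 after the start, on both strands, CCGCCC was found at 5 of 9 genes (En1, En2, Emx1, Nkx2-1 and Emx2) and at 43.4% of all promoters. GCCCCGCCC, which contains CCGCCC, was found at Emx1 and at 14.4% of all promoters. TAATTA was found at Otx2 and Emx2 and at 4.83% of all promoters, and TAATCC at En1 and En2 and at 7.10%.

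Reads kept after removal of repeated positions were 2635705 in the Jarid1b shRNA H3K4me3 library, 5158330 in the scramble H3K4me3 library, 4336767 in Jarid1b replicate 1 and 1602370 in Jarid1b replicate 2. At promoters enriched for H3K4me3, the median was 63 reads in the Jarid1b shRNA library and 91 in the scramble library. The counts of the patterning genes were lower at all 9 in the scramble library and at all but En2 in the Jarid1b shRNA library. The Jarid1b libraries held common fragments: of the plus-strand reads in replicate 2, 16.8% began at a base where replicate 1 also had a read, 9.52 times the share at other offsets. They also differed by no more than the sampling noise (chi-square per degree of freedom 0.996 over 12603 promoters), so they were counted as 1 sample (n = 1). The labelled cell type was checked with H3K4me3 at markers. Of 8 stem cell markers, 6 were enriched in the Jarid1b shRNA library and 7 in the scramble library, with summed levels of 211 and 292 RPM (reads per 1000000 reads kept). Nanog, Zfp42, Tdgf1 and Dppa5a were called lower in the Jarid1b shRNA library. Pou5f1 (log2 ratio −0.70), Sox2 (0.23) and Klf4 (0.69) were not called, and Esrrb held 0 reads there and 3 in the scramble library. Sox1, planned as a neural progenitor marker, has no value here. Of 3 other neural progenitor markers, 1 was enriched in each library. Their summed levels were 18.6 RPM in the Jarid1b shRNA library and 8.34 RPM in the scramble library. Fabp7 held 3 and 4 reads in the same order. For 4 fibroblast markers the sums were 31.5 and 13.0 RPM with 3 and 2 enriched. For 3 endoderm markers they were 11.0 and 6.20 RPM with 1 enriched in each, and Afp was at 0 reads in both. The neural marker Nes, the fibroblast marker Twist2 and the endoderm marker Gata6 were called higher. The part of cell composition in the values below was not tested. The promoter of Kdm5b itself had 155 reads in the Jarid1b shRNA library and 153 in the scramble library, a log2 ratio of 0.99 (95% interval 0.66 to 1.32). An shRNA acts on the transcript, so reads at this promoter say nothing of the knockdown.

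H3K4me3 at the gene-level starts was found first in each library on its own. A window was called enriched when its reads exceeded the expected count by an exact one-sided Poisson test, with Benjamini-Hochberg adjustment over all promoters at 0.05. The expected count came from the genome as a whole or from the flanking 10 kb on both sides, whichever gave more reads. In the Jarid1b shRNA library, 6 of 9 patterning genes were enriched, where 59.9% of all promoters were. In the scramble library, 5 of 9 were enriched, where 60.0% of all promoters were. These shares lie near the background. The enriched genes were Emx1, Emx2, Otx1, En1 and En2 in both libraries, and Nkx2-1 in the Jarid1b shRNA library only by this threshold. Enrichment was below that of the typical promoter: the median enrichment over the 9 genes was 4.20-fold in the Jarid1b shRNA library and 2.30-fold in the scramble library, against 5.57-fold and 4.46-fold over all promoters. In scramble cells the 9 genes lay between percentile 11.7 (Nkx2-1) and percentile 55.0 (En2) of all promoters.

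The comparison of both conditions asked whether cells with the Jarid1b shRNA carried another level of H3K4me3 at these starts. The ratio was taken on RPM, Jarid1b shRNA over scramble, for promoters with H3K4me3 enrichment in at least 1 of these libraries and a sum of 20 reads or more. Called higher or lower were promoters that differed by 2-fold or more with a 95% interval of the log2 ratio that did not include 0. Of the 5 patterning genes that met the minimum, 5 were called higher and 0 lower, where 24.0% of 13273 compared promoters were called higher and 2.37% lower. The median log2 ratio was 1.84 over these 5 genes and 0.41 over all compared promoters. The minimum keeps genes that are high in at least 1 library, so the count does not speak for the other 4 genes, Otx2, Six3, Gbx2 and Nkx2-1. Of all 9, 8 had a ratio above 0, but the median of 0.41 places most compared promoters above 0 as well. Otx2 (−0.25) and Gbx2 (−0.44) lay below 0 once that median was set to 0. With the median ratio of all compared promoters set to 0, 4 of the 5 were called higher, all but Emx2, where 12.0% of all compared promoters were. Of all promoters called, 91.0% were higher as scaled to RPM and 57.2% with the median set to 0.

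Emx1 and Emx2 encode related homeodomain factors of the developing cerebral cortex. Emx1 (chr6:85137432-85154456, plus strand) had 41 H3K4me3 reads (15.6 RPM) in the Jarid1b shRNA library and 19 reads (3.68 RPM) in the scramble library, a log2 ratio of 2.08 (95% interval 1.26 to 2.95). Emx2 (chr19:59533180-59539847, plus strand), which is needed for growth of the hippocampus, had 22 reads (8.35 RPM) in the Jarid1b shRNA library and 17 (3.30 RPM) in the scramble library, a log2 ratio of 1.34 (0.36 to 2.34). Both were called higher, and their difference of 0.74 (−0.47 to 1.94) did not exceed counting error. The call of Emx2 was lost when the ratio was scaled to a median of 0 over all compared promoters (0.93), and that of Emx1 was kept (1.67). Windows of 500 bases on each side gave 0.09 (−1.63 to 1.65) for Emx2 and 2.41 (1.10 to 3.90) for Emx1. Emx2os, whose annotated start lies 55 bases upstream of that of Emx2 on the other strand, shared most of the window and had 18 reads in the Jarid1b shRNA library and 16 in the scramble library.

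Otx1 and Otx2 encode orthodenticle-type homeodomain factors; Otx2 is required for formation of the head and is also expressed in pluripotent cells, and Otx1 acts later in the cortex and in sense organs. Otx1 (chr11:21894767-21902900, minus strand) had 34 reads (12.9 RPM) in the Jarid1b shRNA library and 14 (2.71 RPM) in the scramble library, a log2 ratio of 2.25 (1.31 to 3.26), the largest of the 5 compared genes. In windows of 500 bases on each side it had few reads, with a log2 ratio of −0.62 (−6.33 to 3.02). Otx2 (chr14:49277354-49287319, minus strand) had 4 reads (1.52 RPM) in the Jarid1b shRNA library and 7 (1.36 RPM) in the scramble library. Its gene-level start was therefore without detectable H3K4me3 in either library at this depth, and its log2 ratio of 0.16 (−2.06 to 2.14) is not informative. Six3 (chr17:86012948-86031153, plus strand), a repressor of Wnt signalling at the front of the neural plate, had 10 reads (3.79 RPM) in the Jarid1b shRNA library and 5 (0.969 RPM) in the scramble library, enriched in neither, with a log2 ratio of 1.97 (0.29 to 3.87).

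En1 and En2, the engrailed genes of the midbrain and cerebellum, had nearly equal ratios at different levels. En1 (chr1:122498995-122505873, plus strand) had 31 reads (11.8 RPM) in the Jarid1b shRNA library and 17 (3.30 RPM) in the scramble library, a log2 ratio of 1.84 (0.94 to 2.78). En2 (chr5:28492236-28500152, plus strand) had the highest level of the 9 genes in both libraries, with 82 reads (31.1 RPM) in the Jarid1b shRNA library and 45 (8.72 RPM) in the scramble library, a log2 ratio of 1.83 (1.29 to 2.39). In windows of 500 bases on each side the interval of En1 included 0 (1.14, −0.41 to 2.71) and that of En2 did not (2.00, 1.25 to 2.79). The difference between their ratios at 1 kb was 0.00 (−1.0 to 1.0). Gbx2 (chr1:91824537-91829865, minus strand) represses Otx2 on the hindbrain side of the border. At its gene-level start it had 3 reads (1.14 RPM) in the Jarid1b shRNA library and 6 (1.16 RPM) in the scramble library, with a log2 ratio of −0.03 (−2.66 to 2.20).

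Nkx2-1 (chr12:57632922-57637895, minus strand), which specifies the ventral forebrain as well as thyroid and lung, had 12 reads (4.55 RPM) in the Jarid1b shRNA library and 2 (0.388 RPM) in the scramble library. It was enriched in the Jarid1b shRNA library (2.35-fold, adjusted p = 0.0108 by the exact Poisson test) and not in the scramble library (0.496-fold). Its log2 ratio of 3.55 (1.39 to 6.76) was the highest of the 9 but rested on 14 reads in all, under the minimum of 20. The order of H3K4me3 levels in the Jarid1b shRNA library was En2, Emx1, Otx1, En1, Emx2, Nkx2-1, Six3, Otx2 and Gbx2. In the scramble library En2 was again at the top, and Emx1, Emx2, En1 and Otx1, with 14 to 19 reads each, lay within counting error of one another.

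**Figure D1:**
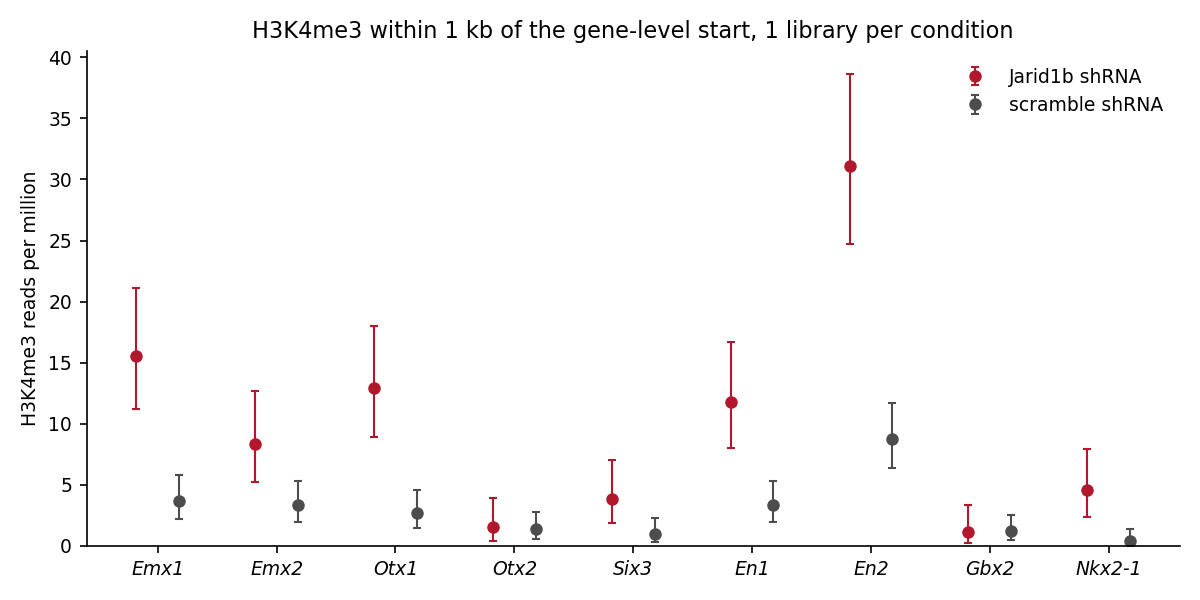
H3K4me3 in RPM within 1 kb of the gene-level start for the 9 genes, Jarid1b shRNA library (red, left) and scramble library (grey, right), with 95% Poisson intervals for counting error. En2 was highest in both, at 31.1 and 8.72 RPM, while Otx2 and Gbx2 lay below 2 RPM in both.

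Jarid1b itself was measured in the other pair of libraries. Jarid1b replicate 1 was enriched at 5 of 9 genes (Emx1, Emx2, Otx1, En2 and Nkx2-1), where 26.8% of all promoters were enriched. The shallower replicate 2 was enriched at 1 of 9, where 10.7% were. Emx2 was the only 1 of the 9 enriched in both, where 7.97% of all promoters were. The counts in replicate 2 and in both libraries lie near the background, and the pair was counted as 1 sample. At Emx2, 29 reads in replicate 1 were 4.33-fold over the expected count (2.90 to 6.22, adjusted p = 1.36e-08 by the exact Poisson test) and 15 reads in replicate 2 were 6.82-fold (3.82 to 11.2, adjusted p = 3.9e-06). Of these 15 reads, 2 were shared with replicate 1. By this expected count Emx2 had the highest Jarid1b enrichment of the 9 in both libraries. However, its interval overlapped those of Emx1, En2, Nkx2-1 and Otx2 in replicate 1, and those of En2 and Otx2 in replicate 2. Over background bins of like GC content, replicate 1 was 3.79-fold at En2, 3.01-fold at Emx1 and 2.82-fold at Emx2. Replicate 2 was 3.69-fold at Emx2 on that scale. Among the 5 compared genes Emx2 had the lowest H3K4me3 ratio, and a relation between both values was not tested.

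By the same exact test, En2 had 39 reads in Jarid1b replicate 1 (3.79-fold, 2.69 to 5.18, adjusted p = 9.12e-10) and 9 in replicate 2 (2.43-fold, 1.11 to 4.62, adjusted p = 0.0884), just short of the threshold there. Emx1 had 31 and 8 reads in replicates 1 and 2, 3.97-fold (2.70 to 5.64) and 1.70-fold (0.735 to 3.35). Otx1 had 24 and 9 reads, 1.79-fold (1.15 to 2.66, adjusted p = 0.0258 by the exact test) and 1.80-fold (0.823 to 3.42). Nearly the same enrichment at Otx1 passed in the deeper library and missed in the shallower one. Nkx2-1 had 20 and 4 reads, 2.78-fold (1.70 to 4.29, adjusted p = 0.000694 by the exact test) and 1.25-fold. Otx2 had 8 and 1 reads, Six3 21 and 2, En1 11 and 5, and Gbx2 8 and 4, with enrichment from 0.640-fold to 2.29-fold in replicate 1, and none of these 4 passed. At Six3 the flanks also held many reads, so that 21 reads in replicate 1 were 1.36-fold over the expected count. On the unique positions of both files pooled, the same 5 genes as in replicate 1 were enriched, where 34.8% of all promoters were.

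**Figure D2:**
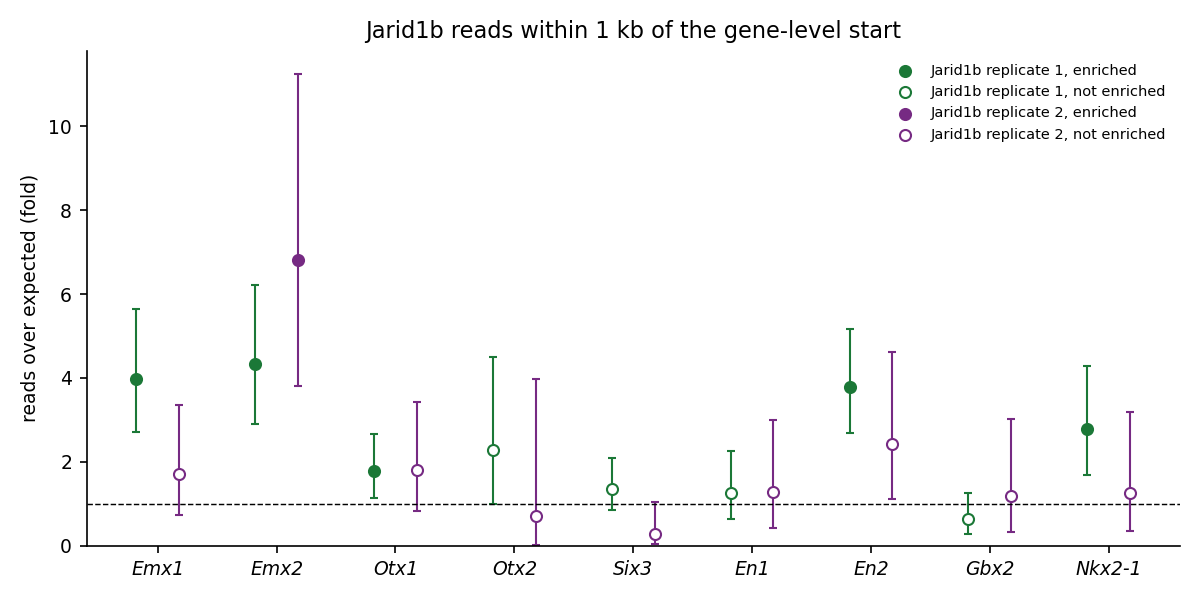
Jarid1b reads over the expected count within 1 kb of the gene-level start, replicate 1 (green, left) and replicate 2 (purple, right), with 95% Poisson intervals for counting error; filled points passed the threshold and the dashed line is 1-fold. Emx2 was the only gene with both points filled, at 4.33-fold and 6.82-fold.

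The reads were not centred on the annotated starts. Within the windows, H3K4me3 lay mainly downstream of the start at 6 genes in the Jarid1b shRNA library. En2 had 78 reads in the 1 kb downstream and 4 in the 1 kb upstream, Emx1 35 and 6, Otx1 28 and 6, En1 26 and 5, Emx2 17 and 5, and Nkx2-1 12 and 0. Six3 had 5 reads on each side, and Otx2 (4 and 0) and Gbx2 (1 and 2) had too few to tell. In the scramble library En2 had 37 reads downstream and 8 upstream and Emx1 13 and 6, whereas Emx2 had 6 downstream and 11 upstream and En1 8 and 9. At Emx2 the upstream reads, on the side of Emx2os, were thus 5 in the Jarid1b shRNA library and 11 in the scramble library. The downstream reads were 17 and 6 in the same order.

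The flanking 10 kb upstream and downstream of each start were therefore scanned in bins of 500 bases, and the bin with the most H3K4me3, both libraries summed in RPM, was taken as the centre of a second window of the same width. This choice was made after seeing the data. Because the bin was picked for its H3K4me3, enrichment for that mark in the new window is a description: 9 of 9 genes were enriched in the Jarid1b shRNA library and 8 of 9 in the scramble library, where 71.1% and 71.6% of all genes treated in the same way were. At 4 of 9 genes (Otx2, Six3, Gbx2 and Nkx2-1) the bin was centred over 1 kb from the gene-level start, as it was at 26.2% of 16562 genes with H3K4me3 in such a window. These are the 4 genes that had not met the minimum for a ratio at the gene-level start. With the new windows all 9 genes could be compared, 8 were called higher and 0 lower, where 22.6% and 2.45% of 15510 windows were, and the median log2 ratio was 1.88, against 0.38. Otx2 was the gene not called. The bins were picked on the same pair of libraries, and Nkx2-1 was enriched in the Jarid1b shRNA library alone (adjusted p = 0.152 in the scramble library by the exact Poisson test), so these calls describe the loci and do not add to the count at the starts.

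Gbx2 was the clearest case of a displaced mark. Its highest bin was centred 2750 bases downstream of the gene-level start, in an exon of Gbx2 that the gene D130058E05Rik on the opposite strand also covers. The window there had 199 reads in the Jarid1b shRNA library and 181 in the scramble library, the most reads of the 9 genes in both, with a log2 ratio of 1.11 (0.81 to 1.40). With the median ratio set to 0 it was 0.70, under 2-fold. A RefSeq promoter sequence of Gbx2, placed on mm9 by exact match, started 2114 bases downstream, with 196 reads (74.4 RPM) in the Jarid1b shRNA library and 163 (31.6 RPM) in the scramble library and a log2 ratio of 1.23 (0.93 to 1.54). The Gbx2 locus thus carried the strongest H3K4me3 of the group, although the gene-level start of Gbx2 had fewer than 10 reads in each library. ChIP-seq carries no strand, so the mark in the exon covered by both genes cannot be assigned to Gbx2 or to D130058E05Rik. In the bins from 1500 to 4000 bases downstream the Jarid1b shRNA library had 21, 84, 79, 24 and 6 reads, and the scramble library 30, 44, 79, 35 and 22. In RPM the 2 libraries differed most in the bin from 2000 to 2500 bases, with 31.9 in the Jarid1b shRNA library and 8.53 in the scramble library. Jarid1b was 2.52-fold enriched in replicate 1 and 1.47-fold in replicate 2 in the window on the highest bin.

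Otx2 had its highest bin 5250 bases downstream of the gene-level start, in an intron. The window there had 51 reads in the Jarid1b shRNA library and 103 in the scramble library, a log2 ratio of −0.05 (−0.56 to 0.45). This interval lies below 1, the 2-fold threshold. Jarid1b was not enriched there, at 0.909-fold in replicate 1 and 0.798-fold in replicate 2. The other annotated starts of Otx2 fell into 2 pairs, each with overlapping windows. At the start 2398 bases downstream there were 21 reads in the Jarid1b shRNA library and 9 in the scramble library, a log2 ratio of 2.19 (1.0 to 3.50), and at the start 2123 bases downstream 24 and 11 reads gave 2.09 (1.01 to 3.27). At the start 5712 bases downstream there were 52 reads in the Jarid1b shRNA library and 109 in the scramble library, a log2 ratio of −0.10 (−0.60 to 0.39), and at the start 4772 bases downstream 35 and 84 reads gave −0.29 (−0.91 to 0.29). The ratio at 2398 bases, the start with the highest ratio, exceeded that at 5712 bases, the start with the most reads, by 2.29 (1.07 to 3.51); this pair was chosen after its values were seen. Within 1 gene, the level in the Jarid1b shRNA library was thus several times that of the scramble library at one set of starts and about equal at another. GC content was 50.8% and 52.6% in the bins from 2000 to 3000 bases, and 57.0% and 47.6% in those from 5000 to 6000 bases. Its part in this contrast was not tested.

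Six3 had its highest bin 4750 bases downstream, in an intron that overlaps Six3os1, a non-coding gene on the opposite strand whose start lies 4788 bases downstream of that of Six3. The window on this bin had 23 reads in the Jarid1b shRNA library and 10 in the scramble library, a log2 ratio of 2.17 (1.04 to 3.41). Without strand in ChIP-seq, the mark there cannot be assigned to Six3 or to Six3os1. A second stretch lay at 2 further annotated starts: at 7423 bases downstream there were 19 reads in the Jarid1b shRNA library and 7 in the scramble library, a log2 ratio of 2.41 (1.10 to 3.90). The only RefSeq promoter placed for Six3 started near these, 7226 bases downstream, and not at the gene-level start. It had 17 reads in the Jarid1b shRNA library and 5 in the scramble library, a log2 ratio of 2.73 (1.24 to 4.53).

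Nkx2-1 had 3 bins with 12 reads each in the Jarid1b shRNA library, from 500 to 1000, from 2000 to 2500 and from 3500 to 4000 bases downstream, where the scramble library had 0, 0 and 2 reads. Jarid1b replicate 1 had its own 3 highest bins of this locus in the same places, with 12, 13 and 10 reads. These bins had 63.8%, 70.0% and 65.8% GC, above the median of 46.1% over all bins of the locus. The window on the highest bin, centred 3750 bases downstream, had 17 reads in the Jarid1b shRNA library and 7 in the scramble library, a log2 ratio of 2.25 (0.91 to 3.76). Over the whole 10 kb on each side, Nkx2-1 had 62 reads (23.5 RPM) in the Jarid1b shRNA library and 32 (6.20 RPM) in the scramble library, a log2 ratio of 1.92 (1.29 to 2.59), again the highest of the 9 and now on 94 reads.

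At the other genes the highest bin lay within 1 kb. In En2 it was centred 250 bases downstream, and in Emx1, Emx2, Otx1 and En1 750 bases downstream, in an exon in all but Otx1, where it was in an intron. The ratios in these windows were 1.85 (1.36 to 2.35) for En2, 2.35 (1.46 to 3.31) for Emx1, 2.11 (0.97 to 3.35) for Emx2, 1.88 (1.13 to 2.65) for Otx1 and 1.55 (0.86 to 2.27) for En1. Emx2 moved most, with 22 reads in the Jarid1b shRNA library and 10 in the scramble library, since the new window left out part of the upstream reads. For Jarid1b, the windows on the highest bin were enriched in both libraries at 3 genes (Emx2, En2 and Nkx2-1), where 10.5% of all genes were. Replicate 1 alone was enriched at 8, all but Otx2, where 32.6% were, and replicate 2 at 3, where 13.9% were.

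**Figure D3:**
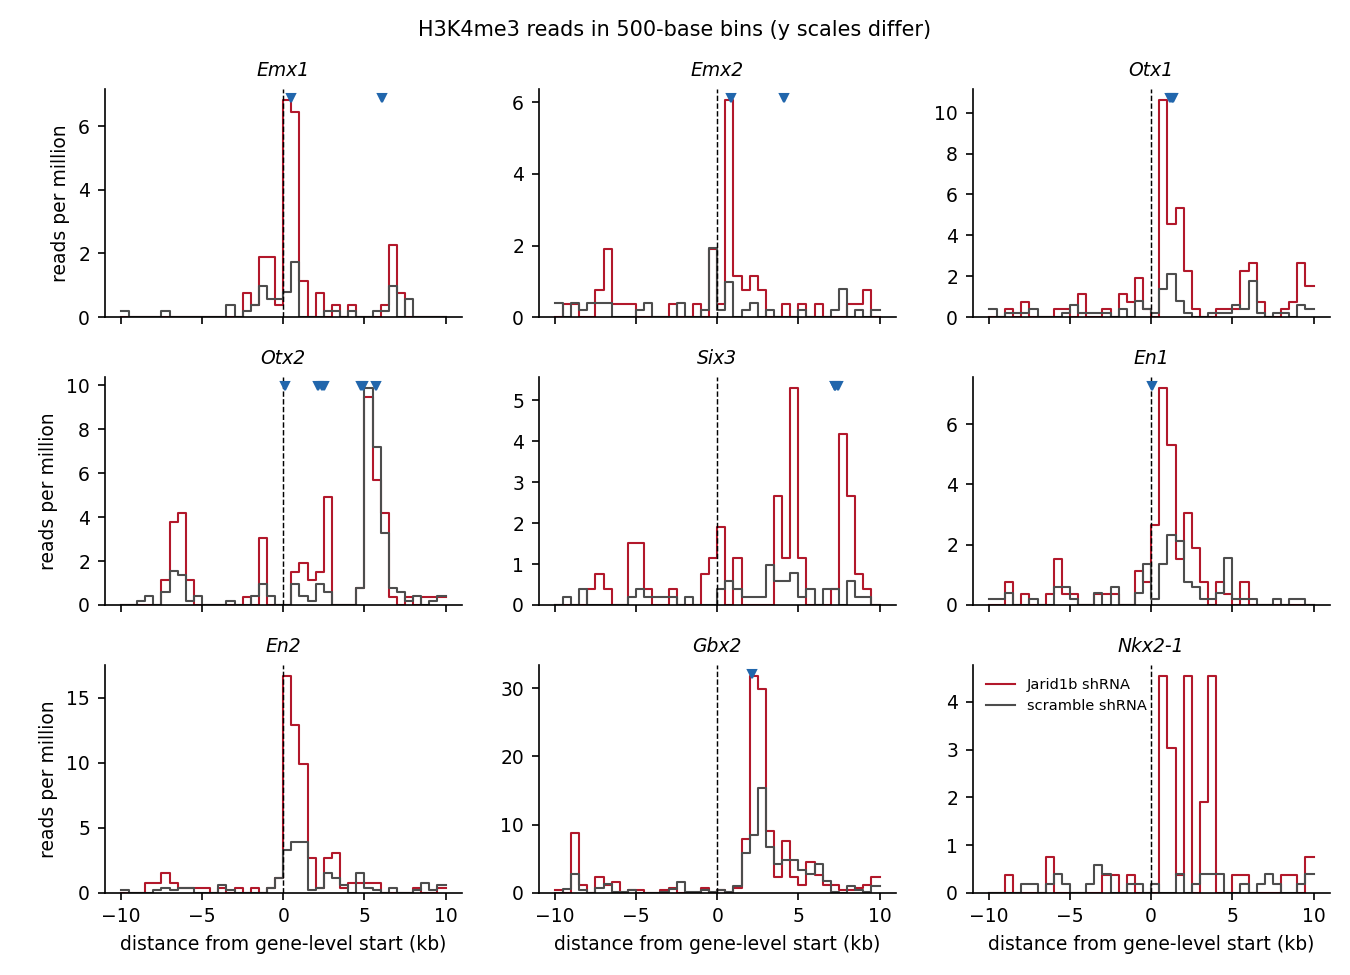
H3K4me3 in RPM in bins of 500 bases from 10 kb upstream to 10 kb downstream of the gene-level start (dashed line): Jarid1b shRNA library (red) and scramble library (grey); blue triangles mark other annotated or RefSeq starts, and the vertical scales differ. The maxima of Gbx2, Otx2, Six3 and Nkx2-1 lie at 2750, 5250, 4750 and 3750 bases downstream of the start.

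**Figure D4:**
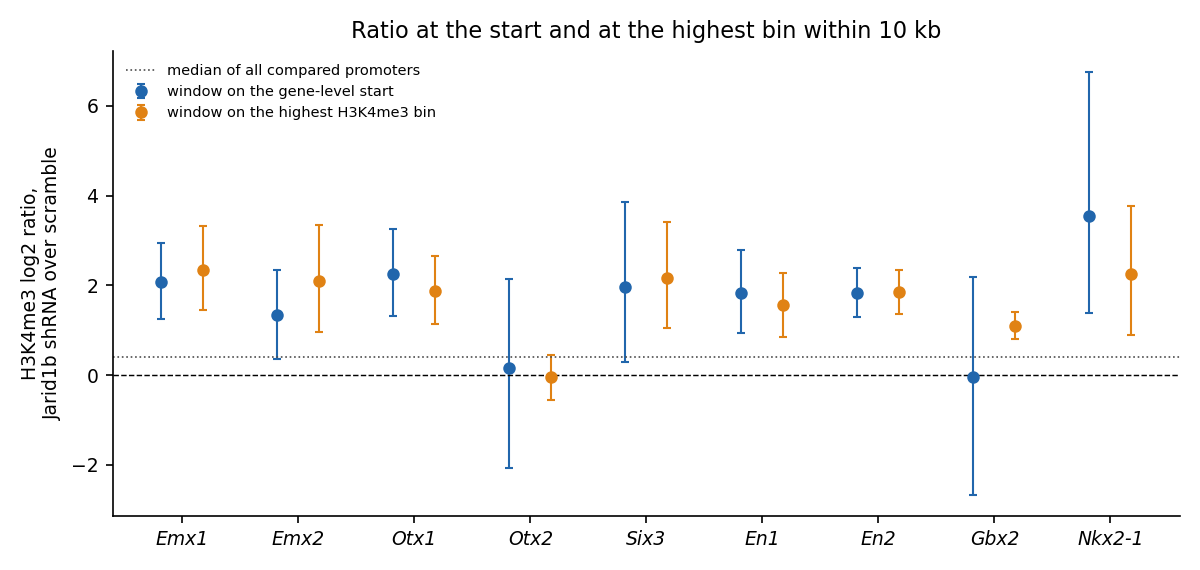
Log2 ratio of H3K4me3, Jarid1b shRNA over scramble, in the window on the gene-level start (blue, left) and in the window on the highest bin (orange, right), with 95% intervals for counting error; the dotted line is the median of all compared promoters, 0.41. Gbx2 lies at 1.11 in the window on the highest bin and at −0.03 at the start, while Otx2 lies near 0 in both.

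The breadth of the mark was described by the 500-base bins called against the genome rate, which took at least 5 reads in the Jarid1b shRNA library and 6 in the scramble library. Of all such bins, 1.33% and 1.73% were called in the same order. Within 10 kb of the start, called bins covered 2500 bases in the Jarid1b shRNA library and 1000 in the scramble library at Emx1, 2000 and 500 at Emx2, 4000 and 1500 at Otx1, 3500 and 0 at Six3, and 2000 and 0 at Nkx2-1. The mark covered more bases in the Jarid1b shRNA library at these 5 genes and at Otx2 (5000 and 3500). It covered equal lengths at En1 (2500 in both) and fewer at En2 (3000 and 3500) and Gbx2 (6000 and 7500). With bins of 250 bases En2 covered 2250 bases in both libraries, En1 2000 in the Jarid1b shRNA library and 1000 in the scramble library, and Gbx2 4250 and 5500, so the order at En1 and En2 depended on the bin. The minimum count per bin also differed between libraries of unequal depth.

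Base composition moved with the ratio over the whole genome, and these values stand beside every ratio above. Across the compared promoters, which are not replicates and share the same 2 libraries, GC content and the log2 ratio had a Spearman rho of 0.628. The median log2 ratio was −0.25 at 45% to 50% GC, 0.17 at 50% to 55%, 0.65 at 55% to 60% and 1.10 at 60% to 65%. The share called higher was 2.92%, 11.5%, 30.1% and 56.1% in the same classes. Emx1, Emx2 and En2 fall in the last class and Otx1 and En1 in the one before it, so for these genes the shares of their own classes are the nearer background. Among 2923 promoters with 14 to 45 scramble reads, the range of the 5 compared genes, 44.0% were called higher and the median log2 ratio was 0.88. The part of GC content in the ratios cannot be told apart from the condition with 1 library each.

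With the GC trend of background bins taken out, the log2 ratio was 1.38 for Emx1, 0.64 for Emx2, 1.62 for Otx1, 1.20 for En1 and 1.13 for En2. By this scale 4 of the 5 were called higher and Emx2 was not, where 8.99% of all compared promoters were. The highest GC class of these bins was open from 58% upward, at a log2 ratio of 0.70, and Emx1, Emx2 and En2 fell in it. The median over compared promoters at 60% to 65% GC was 1.10, so the step took out less than the trend of promoters there. In the windows on the highest bin the same step left 1.65 for Emx1, 1.40 for Emx2, 1.17 for Otx1, 0.85 for En1, 1.14 for En2, 1.54 for Six3, 1.62 for Nkx2-1, 0.40 for Gbx2 and −0.19 for Otx2, so that En1 and Gbx2 lay under 2-fold there. Gbx2 and Otx2, which had the most scramble reads there, were thus the lowest of the 9 on this scale too. Jarid1b reads also moved with GC content: along the 40 bins of the Otx1 locus, the reads of replicate 1 and the GC content had a Spearman rho of 0.917, and over the 9 loci rho ranged from 0.418 (En1) to 0.917.

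**Figure D5:**
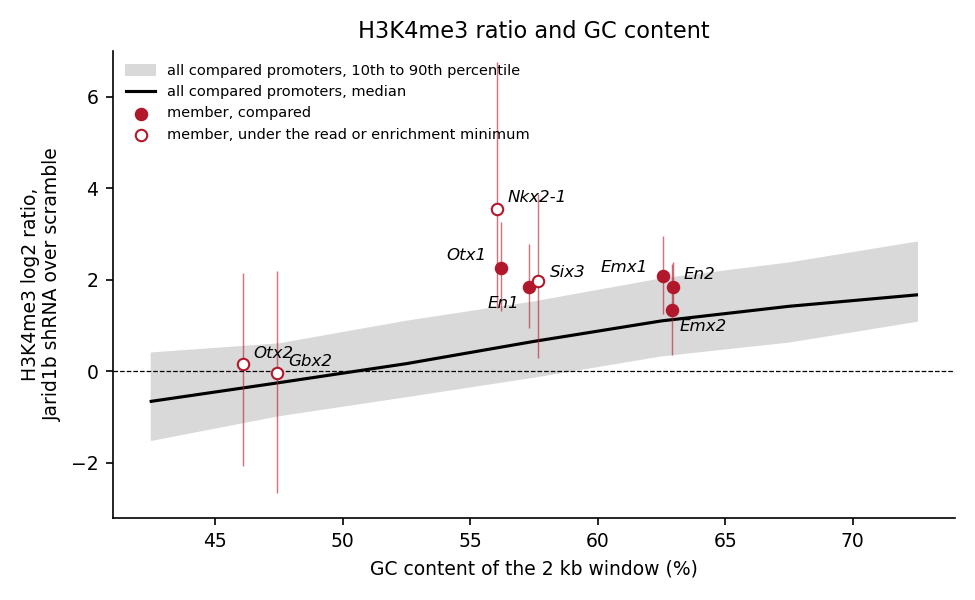
Log2 ratio of H3K4me3, Jarid1b shRNA over scramble, against GC content of the 2 kb window; filled points are the 5 compared genes, open points the 4 under the read or enrichment minimum, bars 95% intervals for counting error, the line the median and the band the 10th to 90th percentile of all compared promoters. All 5 compared genes lie above the median line of their GC content, with Emx2 nearest to it, and Emx2 and En2 lie within the band.

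Relatives of the same families were set beside the members. Gbx1, the paralog of Gbx2, had 49 reads in the Jarid1b shRNA library and 21 in the scramble library at its gene-level start, a log2 ratio of 2.19, and was enriched for Jarid1b in both libraries (1.98-fold and 4.17-fold). Its ratio exceeded that of Gbx2, with a difference of Gbx2 minus Gbx1 of −2.22 (−4.35 to −0.09), but the gene-level start of Gbx2 lies outside the mark of its locus. Six6, an eye field relative of Six3, had 29 reads in the Jarid1b shRNA library and 21 in the scramble library. Its log2 ratio was 1.43, and it was also enriched for Jarid1b in both libraries (3.92-fold and 4.44-fold). Over background bins of like GC content, Jarid1b was 1.55-fold and 2.46-fold at Gbx1 and 2.45-fold and 3.71-fold at Six6. Nkx2-4, a close relative of Nkx2-1, had 65 and 22 reads and a log2 ratio of 2.53. The differences of Six3 minus Six6 (0.53, −1.21 to 2.28) and Nkx2-1 minus Nkx2-4 (1.02, −1.25 to 3.29) did not exceed counting error. In the windows on the highest bins, Otx1 exceeded Otx2 by 1.92 (1.06 to 2.78). Pairs that are not paralogs were also set side by side there, outside the planned list and in windows picked on the same libraries. En2 minus Otx2 was 1.89 (1.21 to 2.57), and En2 minus Gbx2 was 0.74 (0.18 to 1.30). Otx1 minus Gbx2 was 0.77, with an interval that included 0 (−0.001 to 1.54).

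Other regulators of the anterior neural plate were taken as a list of 42 genes, 38 of them protein-coding with 1 gene record each. Of these 38, 15 were enriched for Jarid1b in both libraries, beside 7.97% of all promoters. Over all promoters, 1783 such calls became 152 with a GC-adjusted background, and the count of this list on that background is not given here. For H3K4me3, 30 of 38 were enriched in the Jarid1b shRNA library and 23 in the scramble library, beside 59.9% and 60.0% of all promoters. Of 31 compared, 24 were called higher and 0 lower, beside 24.0% and 2.37% of all compared, with a median log2 ratio of 2.03 beside 0.41. Many of these windows were GC-rich, such as those of Lmx1b (67.25%), Lhx2 (59.75%) and Nr2f1 (58.25%). Of compared promoters at 55% to 60% GC 30.1% were called higher, and at 60% to 65% GC 56.1%. The roof plate and midbrain factor Lmx1a had 27 and 10 Jarid1b reads in replicates 1 and 2 (6.75-fold and 7.98-fold), Gsx1, a factor of the ventral telencephalon, 34 and 21 (4.86-fold and 7.50-fold), and Nkx2-4 25 and 9 (6.41-fold and 7.19-fold). Over background bins of like GC content these were 2.62-fold and 2.46-fold at Lmx1a, 3.30-fold and 5.17-fold at Gsx1, and 2.43-fold and 2.22-fold at Nkx2-4. Among the same 31, the largest ratios were at Lmx1b, with 35 reads in the Jarid1b shRNA library and 4 in the scramble library (4.10, 2.61 to 6.05), the cortical area factor Nr2f1, with 31 and 5 (3.60), and the cortical selector Lhx2, with 28 and 5 (3.45). Among the 31 compared, the smallest were at Fgf17, a growth factor of the midbrain and hindbrain border, with 31 and 59 reads (0.04, −0.64 to 0.69), and the forebrain zinc finger gene Fezf1, with 24 and 38 (0.31). The ratios of Otx1, Emx1, En1 and En2 thus lay near the middle of this list.

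Over the 4 libraries, the protein-coding genes nearest to Nkx2-1, the member with the highest ratio, were Rhbdl2, Sox14 and Evx2, at Euclidean distances of 0.833, 0.841 and 0.962 in log2 enrichment over the genome rate with 1 read added. The nearest to Gbx2, the member with the lowest ratio, were Uck2, Pcp2 and Gm9754, at 0.245, 0.263 and 0.280. Such near matches come easily at a few reads per window, as at Uck2 with 3 H3K4me3 reads in the Jarid1b shRNA library and 7 in the scramble library.

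Over 10 kb on each side of the start, the median log2 ratio was 1.37 over the 9 genes and 0.13 over all promoters. All 9 ratios were above 0 on this scale, as were those of most promoters by the same median. They were lowest at Otx2, with 123 reads in the Jarid1b shRNA library and 172 in the scramble library (0.48, 0.14 to 0.83), and at Gbx2, with 331 and 395 (0.71, 0.50 to 0.93). Emx1 (1.53), Emx2 (1.20), Otx1 (1.62), Six3 (1.63), En1 (0.97) and En2 (1.37) lay between these and Nkx2-1.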

How the data were processed

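ChIP-seq reads of 4 libraries were used. Per the labels' protocols, the authors mapped tags to mm9 with Bowtie, kept 1 match per position, called peaks with MACS and normalized to IgG. The deposited rows are aligned read positions with a score of 0 throughout and still hold repeated positions, so they precede those later steps. No IgG library was used here. The libraries held 2851928 rows (Jarid1b shRNA H3K4me3, 7.56% repeats), 7530697 (scramble H3K4me3, 31.5%), 5120111 (Jarid1b replicate 1, 15.3%) and 1736183 (Jarid1b replicate 2, 7.69%).

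Each strand and 5′ position of the autosomes and the X and Y chromosomes contributed 1 read, shifted 75 bases towards the fragment centre. Windows, enrichment (Poisson test, Benjamini-Hochberg adjustment over 22367 promoters) and ratios (exact Clopper-Pearson interval given the summed reads) were computed in Python 3.11.15 with numpy 2.4.6, scipy 1.17.1 and pandas 2.3.3, and checked on simulated data. Reads carried no molecular identifiers and may repeat a molecule, so intervals cover counting error only. Minus-strand reads of both Jarid1b files lie 1 read length to the left as deposited; moving them was tried as an alternative. The 9 genes and the lists of other genes were chosen with earlier results of these data known. All 9 are named, with their paralogs and, from the list of 42, the 3 highest in Jarid1b, the 3 highest and 2 lowest in ratio, and the 3 genes nearest to the highest and to the lowest member.

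RefSeq promoter sequences matched 7 of the 9 genes and were placed on mm9 by a unique exact match. The upstream sequence of En2 is not reported here. The GC trend was taken from background bins of 1 kb over 5 kb from any start, in 14 GC classes. Alternatives changed the window, repeats, shift, threshold, background, scaling and minimum counts, and left out each Jarid1b library.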

Additional observations from a re-analysis of the deposited data

How the results depend on the processing

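Of 9 genes, the number enriched for Jarid1b in both libraries (1) became 2 with windows of 2 kb on each side, with repeats kept and with no shift, where En2 was added, and 3 in windows on the highest H3K4me3 bin. It was 5 against the genome rate alone and with both files pooled, and 1 to 5 with 1 library left out. Over all promoters the count of 1783 became 863 at a threshold of 0.01, 5539 against the genome rate, 152 with a GC-adjusted background, where Emx2 was still called, 7773 pooled, and 2401 to 5991 with 1 library left out. The 5 genes called higher became 2 with windows of 500 bases on each side, 2 with at least 50 reads, and 8 on the highest bin; scramble H3K4me3 was found at 3 genes with 500 bases and 8 on the highest bin. Over all promoters, 3184 higher and 315 lower (91.0% of calls higher) became 1592 and 1193 (57.2%) with the median ratio set to 0, a shift of −0.41, and 1193 and 477 (71.4%) with the GC trend removed. Lower calls were 112 with scaling to background bins, and a fold of 1.5 gave 5078 higher and 1055 lower. The ratio of Otx1 reversed to −0.62 (−6.33 to 3.02) with windows of 500 bases, which hold few of its reads. Of the other ratios, 93 stayed within the counting interval of the main value and 4 did not. At few reads these intervals are wide, so staying within them does not show stability. Gbx2 on the highest bin (1.11) is among the 93, although its main value was −0.03 (−2.66 to 2.20). Of the widths, 15 moved past 1.5 times and 21 did not. Counts of 2 to 82 H3K4me3 reads per gene limit all of these values. No paired analysis was possible because each H3K4me3 condition has 1 library.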
